A study of Homo sapiens with 12 samples.

Results

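Inflammatory cytokines and chemokines were followed as a set of 9 genes, CXCL1, CXCL2, CXCL3, CXCL8, CCL20, IL1A, IL1B, IL6 and LIF, chosen by gene name in the deposited count tables. All 9 were listed in both tables, among 30984 genes for KYSE30 and 78691 for U138MG. The RNA-seq data cover KYSE30 cells, derived from an esophageal squamous cell carcinoma (ESCC), and cells labelled U138MG, a glioblastoma (GBM) line, both given as wild type, and were made from poly-A RNA. In each line, 3 cultures received 100 nM PTDSS1i, the small-molecule inhibitor DS55980254 of phosphatidylserine synthase 1, and 3 received DMSO, the vehicle, for 48 h, which gave 12 libraries in 4 groups. The design text calls the cultures of a group biological replicates.

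CXCL1, CXCL2, CXCL3 and CXCL8 are secreted chemokines that attract neutrophils through the receptor CXCR2, and CCL20 attracts cells that carry CCR6. IL-1α and IL-1β act through the IL-1 receptor and switch on NF-κB, which in turn can drive transcription of most of these genes, while IL-6 and LIF signal through the shared receptor subunit gp130 to STAT3. In epithelial cells such genes are typically quiet and are induced together by stress, injury or microbial products, and their mRNAs are known for rapid decay through AU-rich elements in the 3′UTR.

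Of the 9 genes, 8 had at least 5 copies of the pentamer ATTTA in the 3′UTR of the longest coding transcript. The share was 29.8% of 17998 protein-coding genes with a 3′UTR of at least 100 bases. Copy numbers also depend on length. Per kilobase, the members ranged from 2.18 for LIF, with a 3′UTR of 3204 bases, to 14.0 for IL6. CCL20 had 6.24, and the median over all these genes was 1.605. CCL20 was the exception with 3 copies, and CXCL2 had the most with 10. The genes sit in a few places of the genome. By the GENCODE 29 annotation of GRCh38, CXCL8 lies at chr4:73740506-73743716 and CXCL1 at chr4:73869393-73871242, both on the plus strand, and CXCL3 lies at chr4:74036589-74038807 and CXCL2 at chr4:74097035-74099293, both on the minus strand. IL1A at chr2:112773915-112784590 and IL1B at chr2:112829751-112836903 are neighbours on the minus strand. CCL20 is at chr2:227805739-227817564 on the plus strand, IL6 at chr7:22725884-22732002 on the plus strand and LIF at chr22:30240447-30246851 on the minus strand.

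Stretches of 110 bases that end at the base before the RefSeq transcription start (build GRCh38.p14) are shown for the chemokines on chromosome 4, which differed widely in response, and for CCL20 and IL6, which hold the same kind of motif and had very different read counts. They are written 5′ to 3′ on the strand of the gene, and capitals mark matches to the NF-κB consensus on either strand.
CXCL1, chr4:73869283-73869392, plus strand: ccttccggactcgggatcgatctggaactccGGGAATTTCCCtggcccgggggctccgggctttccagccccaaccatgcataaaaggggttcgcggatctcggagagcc
CXCL2, chr4:74099196-74099305, minus strand: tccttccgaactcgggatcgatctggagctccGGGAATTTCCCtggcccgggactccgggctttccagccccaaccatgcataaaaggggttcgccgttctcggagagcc
CXCL3, chr4:74038690-74038799, minus strand: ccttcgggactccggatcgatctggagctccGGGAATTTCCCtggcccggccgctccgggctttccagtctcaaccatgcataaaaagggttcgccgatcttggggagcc
CXCL8, chr4:73740459-73740568, plus strand: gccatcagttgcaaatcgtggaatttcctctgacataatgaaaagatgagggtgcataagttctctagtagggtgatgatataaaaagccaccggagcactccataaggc
CCL20, chr2:227813732-227813841, plus strand: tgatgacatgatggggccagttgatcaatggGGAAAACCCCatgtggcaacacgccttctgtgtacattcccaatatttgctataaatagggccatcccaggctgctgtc
IL6, chr7:22727090-22727199, plus strand: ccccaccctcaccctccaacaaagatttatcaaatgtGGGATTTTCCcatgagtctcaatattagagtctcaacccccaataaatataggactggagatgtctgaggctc
CXCL1, CXCL2 and CXCL3 carried the same 11 capital letters at nearly the same place, where the consensus matched both strands with an overlap.

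Over the 250 bases before the start, 5 of the 8 genes with a RefSeq window held an NF-κB match (CXCL1, CXCL2, CXCL3, CCL20 and IL6), as did 9.96% of 35116 promoters. In CXCL1 and CXCL3 it lay 79 to 69 bases before the start, in CXCL2 78 to 68, in CCL20 79 to 70 and in IL6 73 to 64. CXCL8 had no full match to these letters in its window, but tggaatttcc in its stretch above differs from the consensus in the first base only. Such near matches were not counted for any promoter. CXCL8 also held the AP-1 motif TGANTCA at 137 to 131 bases before the start. AP-1 matches were found in CXCL8 and IL1A and in 6.57% of all promoters, and the C/EBP motif TTGCNNAA in CXCL2, IL1B and IL6 and in 9.05%. The letters TATAAA were found in CXCL8, CCL20 and IL1A and in 10.7% of promoters. None of the 8 genes held the C/EBP-ATF motif TGATGNAA, which 3.14% of promoters did. Every motif was searched on both strands, and a match describes the letters only.

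**Figure D1:**
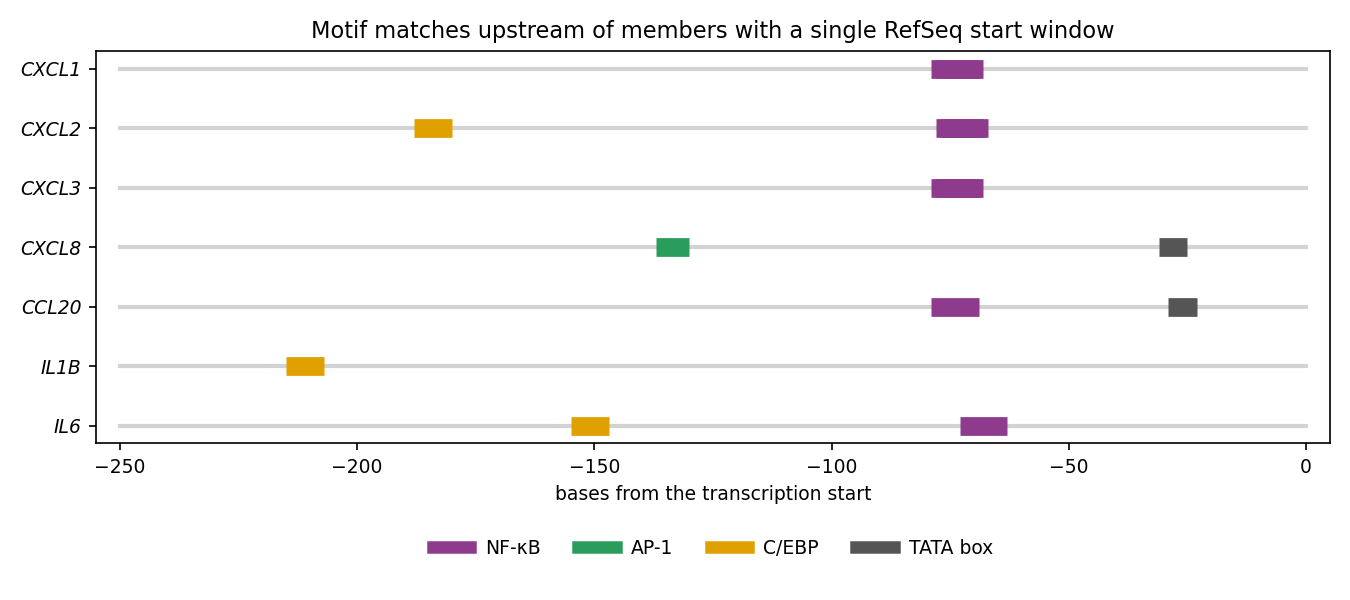
Motif matches in the 250 bases before the RefSeq transcription start of the 7 genes with a single start window, with distance from the start in bases on the horizontal axis and 1 grey line per gene. Coloured blocks are matches to 4 motifs, and the NF-κB blocks of CXCL1, CXCL2, CXCL3, CCL20 and IL6 all lie between 79 and 64 bases before the start.

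Library totals lay between 18800932 and 26514658 counts. At these depths 3 counts in a library, taken as the floor for a gene without signal, correspond to 0.113 to 0.160 CPM, the counts scaled to the library total. The libraries labelled U138MG showed squamous markers at far higher levels than glial ones. KRT5, a basal keratin, averaged 1470 CPM in their DMSO group, VIM, the filament of mesenchymal and glial cells, averaged 0.206 CPM although other mesenchymal markers such as SPARC (713 CPM) were present, and 4 of 8 glial markers were at 0 in all 6 libraries. GFAP, an astrocyte filament, averaged 2.36 CPM there. The glial list summed to 38.0 to 42.3 CPM in the U138MG controls. In the KYSE30 controls, where 5 of the 8 were listed, it summed to 37.8 to 41.2 CPM. Of those 5, 4 had at most 3 counts in every KYSE30 library, so nearly all of that sum came from 1 gene. All KYSE30 libraries carry one batch label and all U138MG libraries another, so the line and the batch cannot be told apart. PTDSS1 itself, the target of the inhibitor, differed by a log2 fold change of -0.05 in KYSE30 (SE 0.057, adjusted p = 0.494) and of -0.38 in U138MG (SE 0.044, adjusted p = 1.06e-08), short of the fold-change threshold.

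To determine whether PTDSS1 inhibition altered these genes, the treated and vehicle libraries of each line were set against each other in edgeR's quasi-likelihood test, run on every gene that passed the filter on low counts. Calls required an adjusted p under 0.05 together with an absolute log2 fold change above 1. In the libraries labelled U138MG all 8 members that were tested were higher after PTDSS1i, from 2.14-fold for CXCL3 to 111-fold for IL1A, whereas 8.19% of the 17666 tested genes were called higher. In KYSE30 only 4 members passed the filter, and CXCL8 and LIF were called higher, against 6.40% of the 16389 tested genes. No member was lower in either line, by the call or at an unadjusted p under 0.05, and 7.04% of tested genes in KYSE30 and 11.6% in U138MG were called lower. A log2 fold change above 4 was seen for 5 members in U138MG (0.526% of tested genes) and for 0 in KYSE30 (0.0488%). By an adjusted p under 0.05 alone, the members counted higher were still 2 and 8, beside 30.1% of tested genes in KYSE30 and 33.9% in U138MG, and 0 were lower, beside 32.0% and 33.6%. In bulk RNA, a change in the share of cells that express a gene and a change in RNA per cell cannot be told apart.

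**Figure D2:**
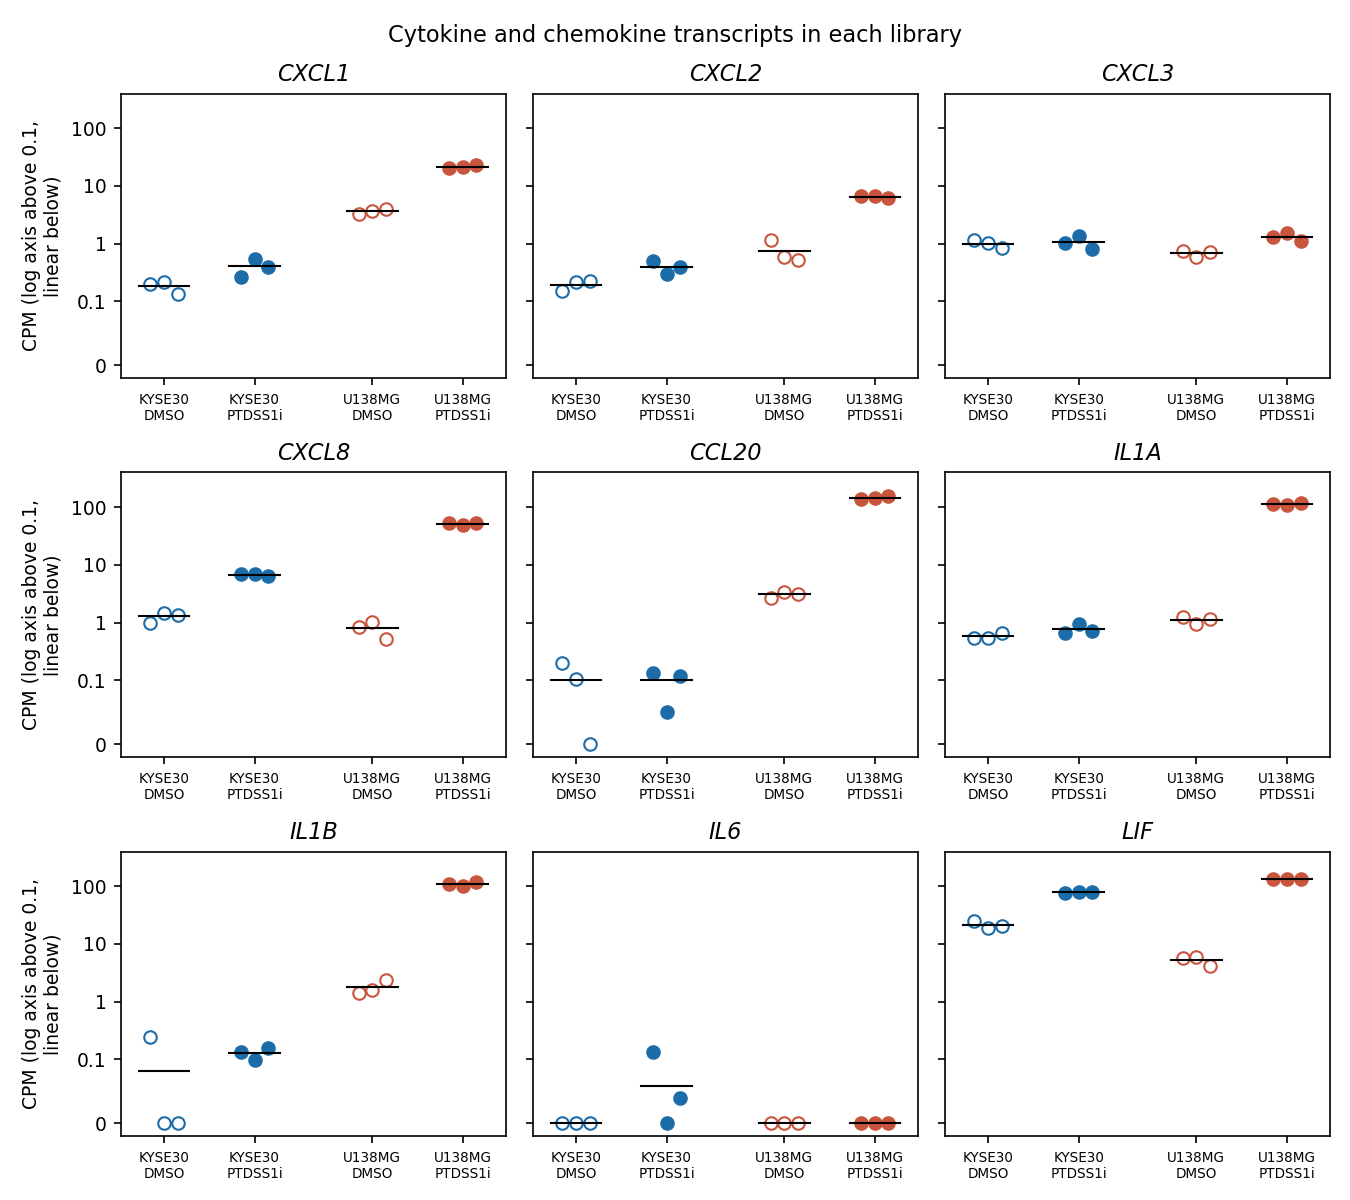
CPM of the library total for the 9 genes, 1 panel per gene, with the 3 DMSO libraries (open) and 3 PTDSS1i libraries (filled) of KYSE30 (blue) and of cells labelled U138MG (red), on a vertical axis that is logarithmic above 0.1 and linear below. Black lines are group means. In U138MG every PTDSS1i point lies above every DMSO point for all genes except IL6, as in 27.0% of tested genes. In KYSE30, where this held for 25.5% of tested genes, the widest separation is in CXCL8 and LIF.

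Among the neutrophil chemokines, CXCL8 rose in both lines. It had 20, 28 and 31 counts in the KYSE30 DMSO libraries and 158, 139 and 160 in the PTDSS1i libraries, or 1.28 ± 0.263 and 6.76 ± 0.368 CPM (SD, n = 3). Every treated library exceeded every control, as in 25.5% of tested genes, and the log2 fold change was 2.50 (SE 0.17, adjusted p = 2.82e-11). In U138MG it went from 16, 23 and 11 counts to 1272, 1129 and 1430, or from 0.794 ± 0.261 to 52.2 ± 2.40 CPM. This was 72.0-fold, a log2 fold change of 6.17 (SE 0.12, adjusted p = 6.02e-26), again with no overlap between the groups, as in 27.0% of tested genes. CXCL8 thus had few reads in the controls of both lines and very different levels after treatment. The shares of 25.5% in KYSE30 and 27.0% in U138MG also apply to the tested members below whose treated libraries all exceeded the controls.

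CXCL1 and CXCL2 rose in U138MG and were below the filter in KYSE30. In U138MG, CXCL1 had 62, 82 and 85 counts with DMSO and 485, 493 and 613 with PTDSS1i (3.63 ± 0.373 and 21.7 ± 1.43 CPM). Its log2 fold change was 2.72 (SE 0.11, adjusted p = 6.72e-19). CXCL2 had 22, 13 and 11 counts with DMSO and 159, 154 and 163 with PTDSS1i, a log2 fold change of 3.28 (SE 0.23, adjusted p = 3.54e-13). Neither gene had overlapping groups there. In KYSE30, CXCL1 had 4, 4 and 3 counts with DMSO and 6, 11 and 10 with PTDSS1i, and CXCL2 had 3, 4 and 5 and then 11, 6 and 10. The treated libraries were above the controls for both, at depths that are close to the floor. Without the filter, the log2 fold changes in KYSE30 were 1.22 for CXCL1 (SE 0.56, adjusted p = 0.081) and 1.10 for CXCL2 (SE 0.55, adjusted p = 0.119), and neither was called. In a fit of both lines together, which lets more genes past the filter and shares one estimate of the spread, they were 1.28 (adjusted p = 0.0163) and 1.15 (adjusted p = 0.0417), and both were called.

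CXCL3, which carries the same NF-κB letters as its neighbours above, moved least. In U138MG it went from 14, 13 and 15 counts to 31, 35 and 29, a log2 fold change of 1.10 (SE 0.33, adjusted p = 0.00474). The call is close to the threshold, since the fold change was 0.95 without scaling beyond library size, 0.95 with upper-quartile normalization and 0.99 without PTDSS1i replicate 2. In KYSE30 the counts were 23, 19 and 19 with DMSO and 23, 27 and 20 with PTDSS1i. The groups overlapped, and the log2 fold change was 0.17 (SE 0.28, adjusted p = 0.619), or -0.020 without PTDSS1i replicate 2 (adjusted p = 0.963). CXCL2 shared 12.5% of its 50-base windows with other transcripts, mainly CXCL3 and CXCL1, CXCL3 shared 6.01% and CXCL1 shared 4.81%. Reads from those stretches cannot be assigned with certainty, whereas CXCL8, CCL20, IL1A and IL1B shared none.

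CCL20 was the member with the most reads after treatment in the libraries labelled U138MG. It had 51, 75 and 68 counts with DMSO and 3322, 3363 and 4092 with PTDSS1i, or 3.07 ± 0.363 and 147 ± 7.77 CPM. The groups were far apart, with a 52.5-fold difference and a log2 fold change of 5.72 (SE 0.073, adjusted p = 3.21e-30). In KYSE30 the gene was barely detected, with 4, 2 and 0 counts in the controls and 3, 1 and 3 in the treated libraries, so that a difference was not detectable at this depth.

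The pair of IL-1 genes rose in U138MG, and IL1A had the largest log2 fold change of the members there. IL1A, which encodes a cytokine that is active as a precursor, had 24, 21 and 25 counts in the U138MG controls and 2705, 2481 and 3093 after PTDSS1i, or 1.12 ± 0.162 and 113 ± 4.02 CPM. Its log2 fold change of 6.80 (SE 0.086, adjusted p = 2.69e-30) ranked 20th from the top among the tested genes. IL1B, whose product needs cleavage by caspase-1 or another protease, went from 27, 36 and 50 counts to 2667, 2344 and 3140, or from 1.79 ± 0.490 to 111 ± 7.92 CPM. This was a log2 fold change of 6.09 (SE 0.10, adjusted p = 9.24e-19) with groups that did not overlap. In KYSE30, IL1A had 11, 10 and 15 counts with DMSO and 15, 19 and 18 with PTDSS1i. The groups just missed each other in CPM (the highest control at 0.665 and the lowest treated library at 0.668), and the log2 fold change of 0.50 (SE 0.31, adjusted p = 0.177) was not called. IL1B in KYSE30 had 5, 0 and 0 counts and then 3, 2 and 4, which overlap.

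LIF and IL6, the members of the gp130 family, differed completely in abundance. LIF was the most abundant member in KYSE30, with 496, 351 and 464 counts in the controls and 1698, 1601 and 1994 after PTDSS1i (21.2 ± 2.97 and 78.0 ± 2.16 CPM). Its log2 fold change was 1.98 (SE 0.082, adjusted p = 4.57e-13), with no overlap. In U138MG, LIF went from 108, 134 and 88 counts to 3182, 3095 and 3572 (5.26 ± 1.00 and 134 ± 1.31 CPM), a log2 fold change of 4.82 (SE 0.072, adjusted p = 5.60e-26). LIF was thus lower in the U138MG controls than in the KYSE30 controls and higher after treatment, in separate tables and batches. IL6 had 0 counts in all 6 U138MG libraries, which allows up to 0.113 to 0.157 CPM per library, and 0, 0 and 0 counts with DMSO and 3, 0 and 1 with PTDSS1i in KYSE30. IL6 shares 15.3% of its 50-base windows with a gene on the opposite strand. Reads from there cannot be assigned with certainty, and the bound does not cover them. No fold is given for IL6.

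LIF shares 175 exon bases with LIF-AS2, a gene on the opposite strand. The kit named in the labels does not mark the strand, so reads from the shared bases cannot be told apart. LIF-AS2 had 9, 15 and 6 counts in the U138MG controls and 221, 194 and 243 after PTDSS1i, a log2 fold change of 4.36 (SE 0.22, adjusted p = 1.93e-16). Its control counts lay near the filter minimum of 10, which the treated libraries cleared. LIF-AS2 was not listed for KYSE30. LIF-AS1, which shares 92 exon bases with LIF, had at most 2 counts in any library.

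**Figure D3:**
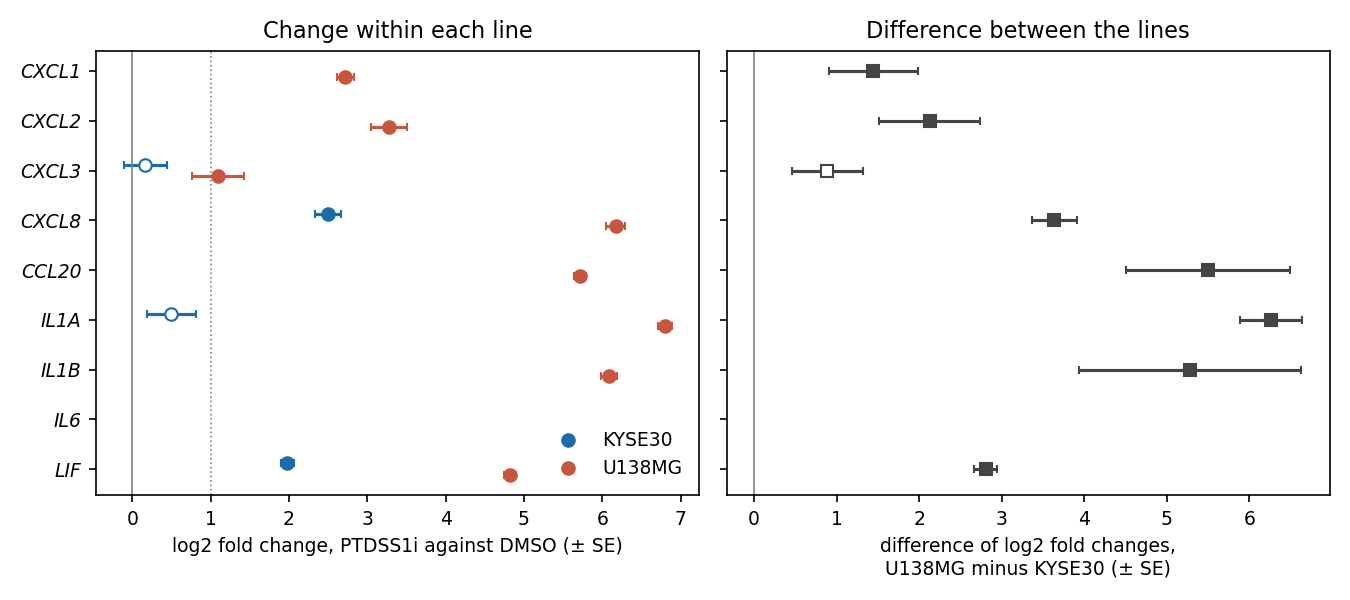
Left, log2 fold change of PTDSS1i against DMSO with its standard error for the members that passed the filter in KYSE30 (blue) and in cells labelled U138MG (red), where filled points were called and the dotted line marks a log2 fold change of 1. Right, the difference of the log2 fold changes, U138MG minus KYSE30, with its standard error, filled at an adjusted p under 0.05. IL1A reaches 6.80 in U138MG against 0.50 in KYSE30, and only CXCL3 is open on the right.

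To test whether the response differed between the lines, the interaction of line and treatment was fitted over 18405 genes. It passed an adjusted p of 0.05 for 7 of the 8 members tested, all with the larger rise in U138MG, as did 49.9% of tested genes in either direction and 25.5% in that direction. The difference of log2 fold changes was 6.27 for IL1A (SE 0.38, adjusted p = 5.29e-15), 3.64 for CXCL8 (SE 0.27, adjusted p = 8.47e-13) and 2.80 for LIF (SE 0.14, adjusted p = 8.08e-12). These genes had at least 10 counts in every library. CCL20, IL1B, CXCL2 and CXCL1 were below the filter in KYSE30, entered this fit through their U138MG libraries alone and rest on very few KYSE30 reads. With at least 10 counts required in every library, which removes them, 3 members passed. The difference was 5.50 for CCL20 (SE 0.99, adjusted p = 2.15e-05), 5.28 for IL1B (SE 1.34, adjusted p = 0.00268), 2.13 for CXCL2 (SE 0.61, adjusted p = 0.00408) and 1.44 for CXCL1 (SE 0.54, adjusted p = 0.0267). Without KYSE30 DMSO replicate 1, which holds all 5 IL1B reads of its group, the IL1B difference was 1.37 (adjusted p = 0.786). The CXCL1 difference lost its call without KYSE30 DMSO replicate 1 (1.34, adjusted p = 0.101), DMSO replicate 2 (1.32, adjusted p = 0.103) or PTDSS1i replicate 1 (1.22, adjusted p = 0.0758). CXCL3 had a difference of 0.89 (SE 0.43, adjusted p = 0.0853).

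Levels of different genes were compared as CPM per kilobase of annotated exon. Exons of all annotated transcripts of a gene were joined, which made CXCL3 1 block of 2219 bases and gave IL1B 3096 bases. A gene expressed mainly as a shorter transcript would have a higher value. The order between genes therefore depends on this length, and other lengths were not tried. In the U138MG controls CXCL1 was highest at 2.80 ± 0.288, followed by CCL20 at 1.93 ± 0.228 and LIF at 1.32 ± 0.252, and from IL1B at 0.578 down to CXCL3 at 0.303 each gene overlapped the next. After PTDSS1i the order there was CCL20 at 92.1 ± 4.88, IL1A at 53.1 ± 1.89, IL1B at 35.8 ± 2.56, LIF at 33.9 ± 0.330, CXCL8 at 22.9 ± 1.06, CXCL1 at 16.7 ± 1.10, CXCL2 at 4.34 ± 0.213 and CXCL3 at 0.589 ± 0.0990 CPM per kilobase. Among these only IL1B and LIF overlapped in their libraries. CXCL1 thus moved from the highest level to the sixth, and IL1A from the fifth to the second. In KYSE30, LIF was far above the rest in both groups, at 5.35 ± 0.749 and 19.7 ± 0.544 CPM per kilobase. CXCL8 came next at 0.565 ± 0.115 in the controls, where it overlapped CXCL3, and at 2.97 ± 0.162 after treatment, where it did not.

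Genes with the most similar pattern were sought over the 12 libraries, with each library expressed as its deviation from the mean of its line. For LIF they were PLAU, CIB1 and KDELR3 (Pearson's r of 0.999, 0.999 and 0.998), for IL1A TMSB4X, CTSL and PDXK (0.999, 0.997 and 0.997) and for CXCL8 TNFRSF10B, CEACAM1 and CTSD (0.997, 0.997 and 0.996). CXCL3 had lower values, of 0.960 for CEP170, 0.943 for SOCS3-DT and 0.934 for SLC25A37. These values describe 12 points that share treatment, depth and batch.

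The receptors of the members differed from each other in read counts and in their change with PTDSS1i. CXCR2, the receptor of the neutrophil chemokines, had 451, 550 and 480 counts in the U138MG controls and 206, 176 and 177 after PTDSS1i. It fell by 1.48 on the log2 scale (SE 0.094, adjusted p = 4.26e-14), and had at most 2 counts in any KYSE30 library. CXCR1 had at most 2 counts in any U138MG library and CCR6, the receptor of CCL20, had 0 counts in all of them. Neither was listed for KYSE30. IL1R1, the signalling IL-1 receptor, had a log2 fold change of -0.04 in KYSE30 (SE 0.14, adjusted p = 0.818) and of 0.19 in U138MG (SE 0.11, adjusted p = 0.115), and the values of its partner IL1RAP were 0.34 and 0.78. IL1RN, the secreted antagonist of both IL-1 proteins, rose in both lines, from 3.04 to 5.92 CPM in KYSE30 (log2 fold change 1.06, SE 0.14, adjusted p = 1.06e-06) and from 15.5 to 74.5 CPM in U138MG (2.41, SE 0.067, adjusted p = 1.06e-20). IL36RN, the antagonist of the related IL-36 proteins, also rose, by 1.06 and 1.48 on the log2 scale. In KYSE30, IL1RL1, the receptor of IL-33, rose from 1.11 to 10.6 CPM (log2 fold change 3.34, SE 0.18, adjusted p = 9.66e-13).

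For the gp130 family, IL6R had a log2 fold change of 0.78 in KYSE30 and -0.90 in U138MG, and the difference of -1.72 passed the interaction test (SE 0.087, adjusted p = 7.51e-17). LIFR had 0.60 and -0.16 and IL6ST, which encodes gp130, had 0.85 and 0.46. With TMM scaling none of these 3 receptor genes reached the fold-change threshold in either line. OSMR, a receptor that pairs with gp130, rose in U138MG from 175 to 335 CPM (log2 fold change 1.09, SE 0.033, adjusted p = 1.55e-21). In KYSE30 it went from 77.2 to 141 CPM (0.97, SE 0.054, adjusted p = 1.07e-12), just short of the fold-change threshold, and the difference between the lines was 0.07 (SE 0.063, adjusted p = 0.349). IL11RA fell by 2.08 on the log2 scale in U138MG. Of 22 receptors and decoys, 13 were tested in KYSE30 with 3 called higher and 0 lower, and 15 in U138MG with 4 higher and 2 lower. Over all tested genes, 6.40% were called higher and 7.04% lower in KYSE30, and 8.19% and 11.6% in U138MG. These shares also apply to the lists below. Without scaling beyond library size, 1 gene of the receptor list was called higher in KYSE30, and IL1RN and IL36RN were not. In U138MG the list had 3 higher and 3 lower without that scaling and with upper-quartile normalization, since OSMR was then at 0.94 and IL6R at -1.05 under both. LIFR, IL6ST, OSMR and IL11RA share exon bases with other genes, which makes their counts less certain.

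Among genes of the NF-κB pathway (receptor adaptors, kinases and subunits), all 26 were tested in both lines. In KYSE30, 3 were called higher and 0 lower with a median log2 fold change of 0.23, and in U138MG 5 were higher and 0 lower with a median of 0.29, beside medians of -0.03 over all tested genes in both lines. RELB, a subunit of the non-canonical arm, rose from 12.0 to 57.0 CPM in KYSE30 (log2 fold change 2.35, SE 0.076, adjusted p = 1.61e-16) and from 9.08 to 29.6 CPM in U138MG (1.85, SE 0.083, adjusted p = 1.20e-17). NFKB2, its partner, rose by 1.63 and 1.04, and IRAK2, a kinase downstream of the IL-1 receptor, by 1.54 and 2.77 on the log2 scale. NFKB1 and RELA, the canonical subunits, had values of -0.03 and 0.45 in KYSE30 and of 0.36 and 0.66 in U138MG, under the threshold. Both non-canonical subunits had the larger rise in KYSE30, opposite to the cytokines, with differences of -0.54 for RELB (adjusted p = 1.95e-04) and -0.63 for NFKB2 (adjusted p = 3.73e-08). Without scaling beyond library size and with upper-quartile normalization, 3 genes of the list were called in U138MG.

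A mixed list of genes that NF-κB is known to induce and of genes that regulate it had medians of 0.74 in KYSE30 and 1.21 in U138MG. In KYSE30, 5 of 15 tested were called higher and 0 lower (3 without scaling beyond library size), and in U138MG 10 of 19 were higher and 0 lower. BIRC3, an inhibitor of apoptosis, rose from 6.31 to 33.2 CPM in KYSE30 (log2 fold change 2.49, SE 0.089, adjusted p = 6.71e-16), and TNFAIP3, which encodes the deubiquitinase A20, rose by 2.01 there and by 1.60 in U138MG. PTGS2, the inducible cyclooxygenase, rose from 3.04 to 6.80 CPM in KYSE30 (1.27, SE 0.16, adjusted p = 5.44e-07) and from 6.82 to 94.2 CPM in U138MG (3.94, SE 0.067, adjusted p = 3.17e-27), and the difference of 2.62 passed the interaction test (adjusted p = 1.65e-13). SOD2, the mitochondrial superoxide dismutase, rose from 261 to 1873 CPM in U138MG (2.99, SE 0.037, adjusted p = 1.57e-30) and ICAM1, an adhesion molecule, from 13.4 to 80.2 CPM. NFKBIA, the classical inhibitor, had log2 fold changes of 0.99 and 0.44 and NFKBIZ of 0.84 and 0.41 in KYSE30 and U138MG, all short of the threshold. ICAM1 shares 22.0% of its exon bases with an antisense gene.

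Of the AP-1, C/EBP and early response factors, 8 of 20 tested were called higher and 0 lower in KYSE30, and 9 were higher and 2 lower of 20 in U138MG, with medians of 0.89 and 0.94. FOSL1, the AP-1 subunit Fra-1, had 26, 22 and 40 counts in the U138MG controls and 1861, 1817 and 1947 after PTDSS1i, a log2 fold change of 5.92 (SE 0.10, adjusted p = 1.30e-26). In KYSE30 it was already at 56.8 CPM in the controls and was not called (adjusted p = 0.161), and the difference of 5.43 passed the interaction test (adjusted p = 2.26e-06). JUN rose from 27.8 to 340 CPM in U138MG (3.76, SE 0.045, adjusted p = 9.88e-31), and FOSB rose in both lines, by 2.46 in KYSE30 and 3.17 in U138MG. CEBPD rose by 1.97 and MAFF by 1.76 in KYSE30. CEBPA, which shares 25.0% of its exon bases with an antisense gene, fell by 1.55 on the log2 scale in U138MG.

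**Figure D4:**
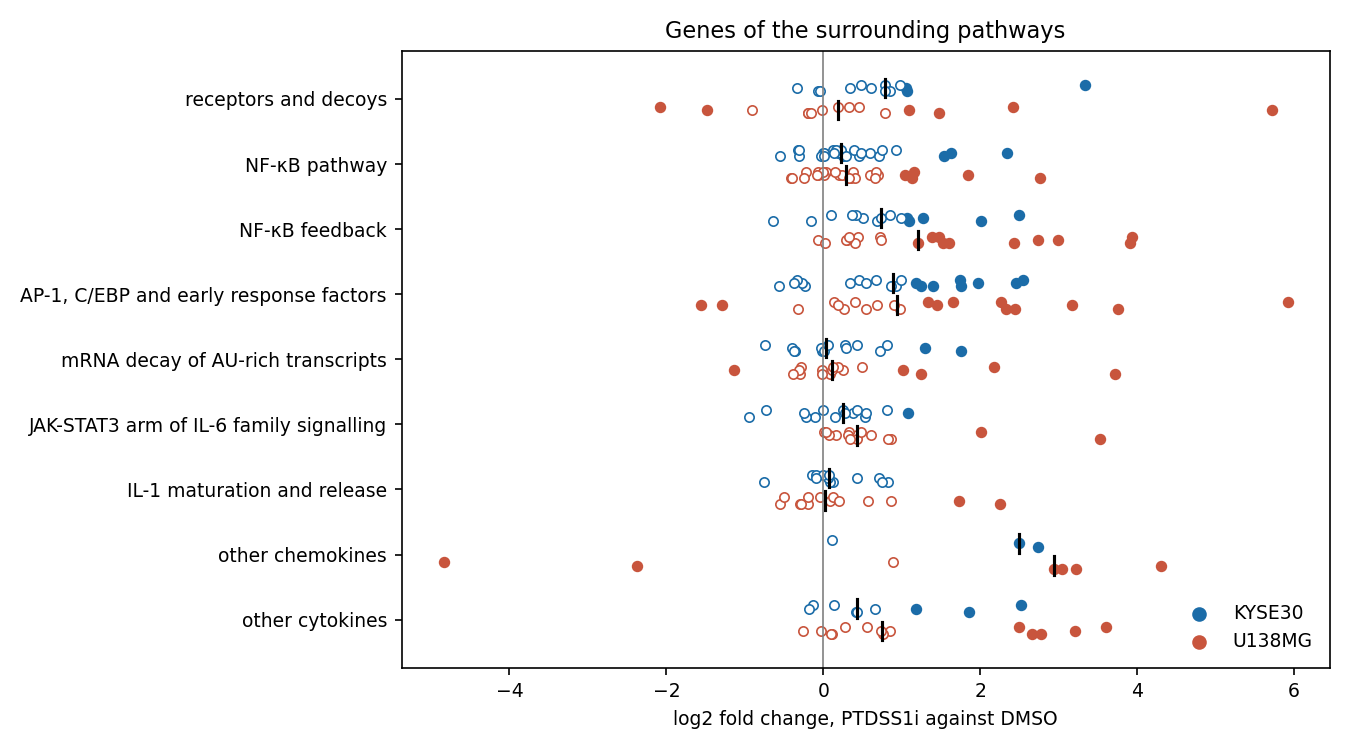
Log2 fold change of PTDSS1i against DMSO for the tested genes of 9 lists around the members, in KYSE30 (blue) and in cells labelled U138MG (red), with 1 point per gene, filled where called, and black bars at list medians. The NF-κB feedback and AP-1, C/EBP and early response lists have medians of 0.74 to 1.21, and the mRNA decay and IL-1 maturation lists have medians of 0.03 to 0.11.

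Among factors of mRNA decay through AU-rich elements, 2 of 16 were called higher and 0 lower in KYSE30, and 4 higher and 1 lower of 17 in U138MG. The shares over all tested genes were 6.40% higher and 7.04% lower in KYSE30, and 8.19% and 11.6% in U138MG. ZFP36, which encodes the decay factor tristetraprolin, rose from 35.1 to 80.2 CPM in KYSE30 (log2 fold change 1.30, SE 0.065, adjusted p = 1.90e-13) and from 22.3 to 91.2 CPM in U138MG (2.18, SE 0.053, adjusted p = 5.85e-24). DUSP1, a phosphatase of the stress kinases, rose by 1.76 and 3.71. In the JAK-STAT3 arm, 1 of 15 genes was called higher and 0 lower in KYSE30, or 0 higher and 1 lower without scaling beyond library size. In U138MG, 2 of 15 were called higher and 0 lower. Those were SOCS3, the feedback inhibitor induced by STAT3, which rose from 3.21 to 33.6 CPM (3.53, SE 0.10, adjusted p = 4.55e-22), and PIM1, a kinase, by 2.01. SOCS3 had a value of -0.11 in KYSE30 (adjusted p = 0.259), and the difference of 3.60 passed the interaction test (adjusted p = 4.73e-20). For IL-1 maturation and release, 0 of 13 genes were called in KYSE30 by edgeR or DESeq2 (at an unadjusted p under 0.05 in edgeR, 5 were higher and 1 lower), and 2 of 14 were higher in U138MG, the gasdermins GSDME by 2.25 and GSDMC by 1.73. The medians of the decay and maturation lists, from 0.03 to 0.11 in both lines, turned negative without scaling beyond library size. In U138MG they were also negative with upper-quartile normalization, at -0.03 and -0.12. Under both settings 3 genes of the decay list were called higher there.

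Few of the 26 other chemokines passed the filter. In KYSE30, 12 were listed in the table and 3 were tested, with 2 called higher, and in U138MG all 26 were listed and 7 tested, with 4 higher and 2 lower. CCL22, a ligand of CCR4, rose in both lines, from 1.48 to 9.30 CPM in KYSE30 (log2 fold change 2.74, SE 0.16, adjusted p = 1.82e-12) and from 1.61 to 28.5 CPM in U138MG (4.30, SE 0.13, adjusted p = 1.67e-21), and CCL5, which attracts T cells and monocytes, rose by 2.49 and 3.22. CXCL17, a mucosal chemokine, rose in U138MG by 3.04, while CCL28, another mucosal chemokine, went from 137, 235 and 129 counts to 8, 4 and 6 there and fell by 4.84 on the log2 scale (SE 0.29, adjusted p = 1.98e-13). Of 31 other cytokines, 9 were tested in KYSE30 with 3 called higher, and 14 in U138MG with 5 higher. IL32 rose in both lines, by 2.52 and 3.21. Of the gp130 family, IL11 rose in KYSE30 by 1.18 and CLCF1 in U138MG by 2.66, and IL36G, an epithelial relative of IL-1, rose in U138MG by 3.60.

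Leukocytes are a known source of several members, so their markers were read in the same libraries. PTPRC, the pan-leukocyte CD45, averaged 0.275 CPM in the KYSE30 controls and 0.145 after PTDSS1i, and in U138MG was at 0 in the controls and at most 2 counts after PTDSS1i. In KYSE30 the markers summed to between 6.72 and 7.82 CPM in the controls and between 16.8 and 19.9 CPM after PTDSS1i, most of it CSF1R. In U138MG they summed to between 30.1 and 36.5 CPM and then between 105 and 113 CPM, most of it CD68, a lysosomal protein. CD68 shares 81.7% of its exon bases with another gene on the same strand, which makes its count less certain. Of the markers listed, 3 of 10 in KYSE30 and 7 of 13 in U138MG had at most 3 counts in every library. Squamous markers summed to 8020 to 8867 CPM in the U138MG controls and 3341 to 3507 after PTDSS1i, and to 1614 to 1691 and 2506 to 2571 CPM in KYSE30. Mesenchymal and endothelial markers summed to 866 to 896 CPM in the U138MG controls, most of it SPARC, and 477 to 495 after PTDSS1i, and to 116 to 170 and 128 to 139 CPM in KYSE30. The part of these shifts in the cytokine values was not tested.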

How the data were processed

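RNA was extracted with TRIzol, and poly-A libraries were made with the TruSeq RNA Sample Prep Kit v2, per the labels. The authors deposited raw, unnormalized gene counts in 1 table per line. The submitters' processing notes name Trimmomatic, STAR, featureCounts and hg38. Their versions, the gene annotation and the strand setting are not given in the sources used here. Labels give the KYSE30 medium for all samples, while the paper's methods give another for U138MG. Groups were taken from the labels, as were replicate numbers.

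The tests used edgeR 4.0.16 with limma 3.58.1 under R 4.3.3, and DESeq2 1.42.0 as an alternative. Sequences were read and plots drawn with Python 3.11.15 (matplotlib 3.10.9, pandas 2.3.3). Low genes were removed by filterByExpr (minimum count 10, minimum total 15), scaled by TMM and compared by the robust quasi-likelihood test, two-sided, with Benjamini-Hochberg adjustment over all tested genes. CPM values use library totals, and the correlations use log2 CPM with prior count 2. An exact permutation test of 3 libraries against 3 cannot give a two-sided p under 0.1, so p-values come from the model across all genes. Chi-square per degree of freedom between replicates was at least 2.29 over genes with at least 20 counts, so each library was kept. Floors cover counting error only. Promoters came from RefSeq, and 8 of 9 members matched. GENCODE 29 exons gave lengths, overlaps and shared windows, and may differ from the authors' annotation.

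The members and lists were chosen with earlier results of these data known. Named beyond the members were up to 3 genes per list, line and direction with the largest called changes at a mean of at least 1 CPM, receptors of the members and NF-κB subunits and inhibitors, and the 3 most correlated genes of each member tested in both lines. The tests were tried on simulated data. Alternatives were other scaling, DESeq2, other filters, no fold-change threshold, both lines in one fit, leaving out each library, and a replicate block. Some genes of the lists are not reported here.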

Additional observations from a re-analysis of the deposited data

Results flagged for a closer look

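The change with PTDSS1i differed between the lines for 7 members by edgeR's interaction test, with the larger rise in the libraries labelled U138MG in each. The differences of log2 fold change, U138MG minus KYSE30, were 6.27 for IL1A, 5.50 for CCL20, 5.28 for IL1B, 3.64 for CXCL8, 2.80 for LIF, 2.13 for CXCL2 and 1.44 for CXCL1. Of the 18405 genes tested, 49.9% passed this test in either direction, and 25.5% passed with the higher change in U138MG. In KYSE30, CCL20 and IL1B had at most 5 counts in any library, and CXCL1 and CXCL2 at most 11. These genes passed the filter through their U138MG libraries alone. The line and the batch label cannot be told apart, so the source of these differences was not tested.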

How the results depend on the processing

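The number of members called in U138MG was 8, or 7 without scaling beyond library size and with upper-quartile normalization, and 7 to 8 with each library left out, where CXCL3 was the gene lost. In KYSE30 it was 2, except 4 when both lines were fitted together. The count of members whose change differed between the lines was 7, and 3 with a filter of at least 10 counts in every library, which removes CXCL1, CXCL2, CCL20 and IL1B, and 5 to 7 with each library left out, the lowest without KYSE30 DMSO replicate 1. The log2 fold change of CXCL3 in KYSE30 lay between -0.020 and 0.35 with each library left out, and was negative without PTDSS1i replicate 2. The cause was not tested. The deviations of same-numbered DMSO and PTDSS1i libraries correlated between 0.020 and 0.075 in KYSE30, above the other pairs at -0.076 to 0.006. In U138MG they correlated between -0.003 and 0.048, within the range of the other pairs at -0.064 to 0.056. All these correlations are small, and the main fits used no pairing. With the replicate number as a block, 2, 8 and 7 members were called in the same 3 comparisons. Over all genes the block moved the calls from 2203 to 2205 in KYSE30 and from 3494 to 3469 in U138MG. The median log2 fold change of all tested genes shifted by -0.10 in KYSE30 and -0.15 in U138MG without scaling beyond library size, and by -0.15 in U138MG with upper-quartile normalization. Members near 3 counts per library in KYSE30 are limited by depth.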
